A study of Mus musculus with 64 samples.

Results

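Transcripts of 8 genes that T cells switch on, or keep high, in response to signals through the T cell receptor (TCR) were followed across mouse regulatory T (Treg) cells with and without the transcription factor Foxp3. The 8 genes were taken by symbol out of the 55809 genes counted. They are the orphan nuclear receptors Nr4a1, Nr4a2 and Nr4a3, the zinc finger factors Egr1, Egr2 and Egr3, and the surface molecules Cd5 and Cd69. Bulk RNA sequencing covered 64 libraries in 28 groups from 2 experiments, 1 in which Foxp3 protein is degraded and 1 in which it is restored. The values are read-pair counts per gene, printed as CPM, scaled to the total read pairs that a library assigned to genes.

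In the degradation experiment, the Foxp3 gene is fused to an auxin-inducible degron (Foxp3-AID) and 5-ph-IAA was given for 7 days to both genotypes. ROSA26-TIR1(F74G) cells carry the plant ligase that marks the degron for destruction, and ROSA26-WT cells lack it. The adult females were heterozygous for the degron allele, and the ligase was switched on by a Cre driven from Foxp3, so loss of Foxp3 starts only after a cell has begun to express it. Thymic Treg cells (sorted as CD73-) and active Treg cells of spleen and lymph nodes (sorted as CD44 high, among other markers) had 3 TIR1 and 3 WT libraries each. Infant Treg cells had 4 and 4. The study describes its neonates as hemizygous Foxp3-AID males dosed from just after birth, so all of their Treg cells carried the degron allele, with no untagged Foxp3. It reports severe autoimmune disease in neonates after 2 weeks of degradation, so inflammation and loss of Foxp3 cannot be told apart in the infants. In the restoration experiment, a reversible stop cassette (Foxp3-LSL) keeps Foxp3 protein off in cells that transcribe the locus, called Treg wannabe cells. Mice with CD4-CreERT2 (plusFoxp3) or with a CD4-WT allele (minusFoxp3) received a single dose of 4-hydroxytamoxifen (4-OHT), and resting and active cells were taken at days 3, 7, 14 and 28, beside untreated day 0 cells. Each of these groups had 2 libraries, as did resting and active Treg cells of Foxp3GFP mice (GFP Treg). All of the Foxp3-LSL mice were heterozygous females, so normal Treg cells were present beside the sorted cells, and the treated CD4-CreERT2 groups are cells that recombined the cassette, while their day 0 cells were untreated. The study describes the libraries of its adult groups as independent biological replicates. The labels do not tie libraries to animals, and for the infants p-values measure a spread between libraries that may be technical.

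Signals through the TCR activate kinase and calcium pathways that reach the Nr4a and Egr genes within minutes to hours without new protein synthesis, which is why Nr4a1 is a common reporter of recent antigen contact. The EGR factors pass the signal on to activation and tolerance genes, while CD5 is a slowly changing inhibitory receptor whose level follows the strength of self-reactive signals. CD69 holds activated lymphocytes in the tissue by opposing the egress receptor S1PR1, and Treg cells as a class receive more TCR signal from self-antigens than other CD4+ T cells.

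The records of the degradation experiment contradict each other. Each of the 12 adult files sits under a GEO sample whose genotype is the opposite of what the library name inside the file says. The name inside the file was followed, and by the sample instead every adult TIR1 minus WT difference below would change sign. The WT libraries compared between thymus and active cells would then be TIR1 libraries. For the 8 infant samples the genotype field is the opposite of the title, while the library name inside each file follows the title. These groups therefore carry the names titled TIR1 and titled WT, and by the genotype field every infant difference would change sign. No difference in Foxp3 transcripts between TIR1 and WT passed the test. WT thymic cells had more Foxp3 transcripts than WT active cells, by 0.45 ± 0.13 on the log2 scale (SE, adjusted p = 0.023, edgeR). TIR1 minus WT was -0.05 on the log2 scale in the thymus (adjusted p = 0.99, edgeR) and -0.06 in infants (adjusted p = 0.83, edgeR). In active cells it was -0.42 ± 0.16 (SE, adjusted p = 1.00, edgeR), with 76.7 to 93.4 CPM in TIR1 and 99.95 to 127 CPM in WT libraries, which did not overlap. In the restoration experiment, Foxp3 lay between 44.3 and 81.5 CPM in minusFoxp3 libraries and between 426 and 615 CPM in plusFoxp3 libraries after day 0. There it passed the test on every treated day in both states.

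The sequence just before a listed start of transcription is shown for Nr4a1, Nr4a3, Egr2 and Cd5. Nr4a1 and Nr4a3 are members of the NR4A group that lay higher in the thymus. Egr2 was the 1 member that passed between plusFoxp3 and minusFoxp3 cells, and Cd5 varied little between libraries. The windows come from the promoter table of RefSeq (assembly GRCm38.p6), which held 5 of the 8 members, and were found again by their sequence in GRCm39 for the positions given. They were trimmed to end where an annotated exon of the same gene begins. For Nr4a1 and Egr2 the listed start lies inside the annotated gene, which begins further upstream at 101152150 and 67371305. Capitals mark TGACG, a part of cAMP response elements (read as CGTCA on the other strand) and, in Egr2, the serum response CArG box, which is CC followed by 6 A or T and GG.
Nr4a1, chr15:101164477-101164656, plus strand: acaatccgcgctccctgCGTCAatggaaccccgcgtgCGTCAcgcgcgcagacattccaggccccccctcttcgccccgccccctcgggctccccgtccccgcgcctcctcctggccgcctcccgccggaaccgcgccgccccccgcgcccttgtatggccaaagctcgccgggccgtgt
Nr4a3, chr4:48045055-48045152, plus strand: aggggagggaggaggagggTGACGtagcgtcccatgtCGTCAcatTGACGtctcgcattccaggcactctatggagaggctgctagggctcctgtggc
Egr2, chr10:67373449-67373691, plus strand: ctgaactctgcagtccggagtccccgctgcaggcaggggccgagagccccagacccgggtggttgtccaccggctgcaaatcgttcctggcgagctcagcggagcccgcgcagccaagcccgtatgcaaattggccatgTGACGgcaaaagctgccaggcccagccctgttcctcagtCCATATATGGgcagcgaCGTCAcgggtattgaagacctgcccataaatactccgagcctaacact
Cd5, chr19:10716367-10716588, minus strand: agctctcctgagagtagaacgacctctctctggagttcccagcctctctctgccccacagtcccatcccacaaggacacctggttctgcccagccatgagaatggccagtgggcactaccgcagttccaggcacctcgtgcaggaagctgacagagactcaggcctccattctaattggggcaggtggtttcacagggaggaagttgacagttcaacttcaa
Over the full 250 bases before the listed start, TGACG on either strand occurred 4 times in each of Nr4a1, Nr4a2 and Nr4a3, of which 2 and 3 lie in the stretches printed for Nr4a1 and Nr4a3. Of 32536 mouse promoters of that length, 0.138% held 4 or more and 17.9% held at least 1. Egr2 has 5 listed start sites, and the window printed was chosen because it holds a CArG box. The box is therefore no finding to set beside the 1.48% of promoters that have one. That window also held 2 TGACG matches, while the window of the first listed Egr2 site held neither motif. Cd5 held none of these. The full element TGACGTCA and the AP-1 motif TGANTCA were absent from these 5 genes' windows, the EGR motif GCGGGNGCG occurred once, in Nr4a1, and 4.91% of promoters hold it. GGAAA, the core of NFAT sites and common at 55.7% of promoters, occurred once in Nr4a2 and 1 to 3 times in 4 of the Egr2 windows. These are matches of letters and no measure of binding.

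Between 27753211 and 34029692 read pairs were assigned per adult degron library, from 33704114 to 55801009 in infants and from 35097257 to 57419138 in the other 44. T and Treg cell markers (Cd3e, Cd4, Foxp3, Il2ra, Ikzf2, Ctla4) summed to between 1748 and 4776 CPM in every library. Markers of other cells were low: those of double-positive thymocytes summed to at most 7.03 CPM, of NK cells to at most 10.1, of B cells to at most 57.7, of CD8 T cells to at most 63.4 and of myeloid cells to at most 338. Rag1 and Rag2 were at 0 in all degron libraries. A list of 19 immediate-early and handling stress genes (Fos, Jun, Atf3, Hspa1a and others), which respond to cell isolation as well as to signals, summed to between 2890 and 6211 CPM in the degron libraries and between 8195 and 28443 CPM in the others, and its values are given where members moved with it. The members and the other gene lists were chosen with results of these data known. In bulk RNA, fewer cells with a transcript and less of it per cell cannot be told apart.

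Per length of transcript, Cd5 was the most abundant of the 8 in 24 of the 28 groups. Egr1 led in 3 groups, which were active minusFoxp3 cells at days 7, 14 and 28. There Egr1 was 2.11 to 2.32 times higher in the library numbered 2 than in that numbered 1, and its lead rests on the former. Nr4a1 led in 1 group, the WT thymus, with 236 RPKM (CPM per kilobase of exon) against 230.0 for Cd5. Nr4a2, Nr4a3 and Egr3 were the 3 lowest in 28 of 28 groups, at 0.372 to 6.52 RPKM, while the 5 others stood at 12.8 to 236 RPKM. Within groups of the restoration experiment the pooled SD on the log2 CPM scale was 1.01 for Nr4a2 and 0.135 for Cd5, with Nr4a1 at 0.788 and Egr1 at 0.545.

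Nr4a1 and Cd5 were higher in thymic than in active Treg cells. In WT thymic Treg cells Nr4a1, the best known marker of recent TCR signalling, was 4.09-fold above WT active Treg cells, and Cd5 was 1.30-fold above them. The other 6 members did not pass the same test, although DESeq2 called 5 of 8, adding Nr4a2, Nr4a3 and Egr1, and a replicate block gave 3, adding Nr4a2. Egr2, Egr3 and Cd69 had differences below 0. Nr4a1 had 719, 914 and 849 CPM in the 3 WT thymic libraries and 185, 170.2 and 215 CPM in the 3 WT active libraries. Every thymic library lay above every active one, and the log2 difference was 2.03 ± 0.12 (SE, adjusted p = 2.8e-07, edgeR quasi-likelihood test with Benjamini-Hochberg adjustment). Cd5 had 1126, 1168 and 1106 CPM in the thymus and 782, 842 and 825 CPM in active cells. These groups were also apart, by 0.38 ± 0.07 on the log2 scale (SE, adjusted p = 0.0017, edgeR). So 2 of 8 members were called, both higher, where 9.22% of 14769 genes were called higher and 23.0% in either direction.

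Nr4a2 and Nr4a3, the less abundant NR4A receptors, lay higher in the thymus in every library without passing the test. Nr4a2 had 14.4, 34.0 and 8.13 CPM in WT thymic and 6.81, 5.86 and 0.897 CPM in WT active libraries. Nr4a3 had 37.8, 37.1 and 34.1 CPM in the thymus and 23.4, 2.23 and 6.99 CPM in active cells. Neither gene overlapped between tissues, yet the active libraries scattered widely, and the log2 differences were 1.97 ± 0.68 (SE, adjusted p = 0.056, edgeR) and 1.64 ± 0.60 (SE, adjusted p = 0.067, edgeR). Nr4a3 passed with a difference of 2.89 when the first WT active library, at 23.4 CPM, was left out, and then 4 of 8 members were called. The share of all genes called in that fit is not given here. Egr1 had 468, 442 and 405 CPM in the thymus and 358, 286 and 377 CPM in active cells, which is 0.27 ± 0.11 (SE, adjusted p = 0.087, edgeR). In all, 5 of 8 members lay higher in the thymus with no overlap, beside 19.2% of all genes. Egr2 differed by -0.01 ± 0.16, Egr3 by -0.30 ± 0.38 and Cd69 by -0.25 ± 0.15 on the log2 scale (SE).

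Other TCR-induced genes were likewise divided between the tissues. Of 21 tested, 10 were higher and 6 lower in the thymus. Tnfrsf9, the costimulatory receptor 4-1BB, rose by 2.22 ± 0.20 and the NF-kB subunit Rel by 1.86 ± 0.21 on the log2 scale (SE). Irf4, a factor of effector Treg cells, was lower by 3.15 on that scale (log2 difference -3.15 ± 0.50, SE), and Lag3 was near 0 in the thymus. Of 14 partners and brakes of EGR and NR4A signalling, 2 were higher, which were the diacylglycerol kinase Dgka (0.89 ± 0.13, SE) and Ubash3a (0.51 ± 0.11, SE), and 2 were lower, which were the adaptor Sla (-2.03 ± 0.17, SE) and the phosphatase Ptpn22 (-1.18 ± 0.14, SE). Ccr7, a chemokine receptor of the lymphocyte recirculation programme that CD69 opposes, was higher in the thymus by 2.15 ± 0.11 on the log2 scale (SE).

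The immediate-early list ran against Nr4a1 in this comparison. Its sum was 3556 to 3754 CPM in the WT thymic and 5711 to 5947 CPM in the WT active libraries, and of 19 genes 1 was higher in the thymus (Btg2, 0.63) and 11 were lower (Fos, -3.89). With that sum as a covariate, a fit chosen after the values were seen, Nr4a1 still differed by 1.91 and Cd5 by 0.62. Neither passed (adjusted p = 0.19 and 0.58, edgeR), and 73 genes in all were called. The sum itself does not overlap between the tissues. Markers of CD8 T cells also summed higher in thymic libraries of both genotypes (54.1 to 63.4 against 11.1 to 20.6 CPM) and those of myeloid cells lower (117.9 to 164 against 197 to 306 CPM), and their part in the result was not tested. Tissue and sort gate cannot be told apart here.

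**Figure D1:**
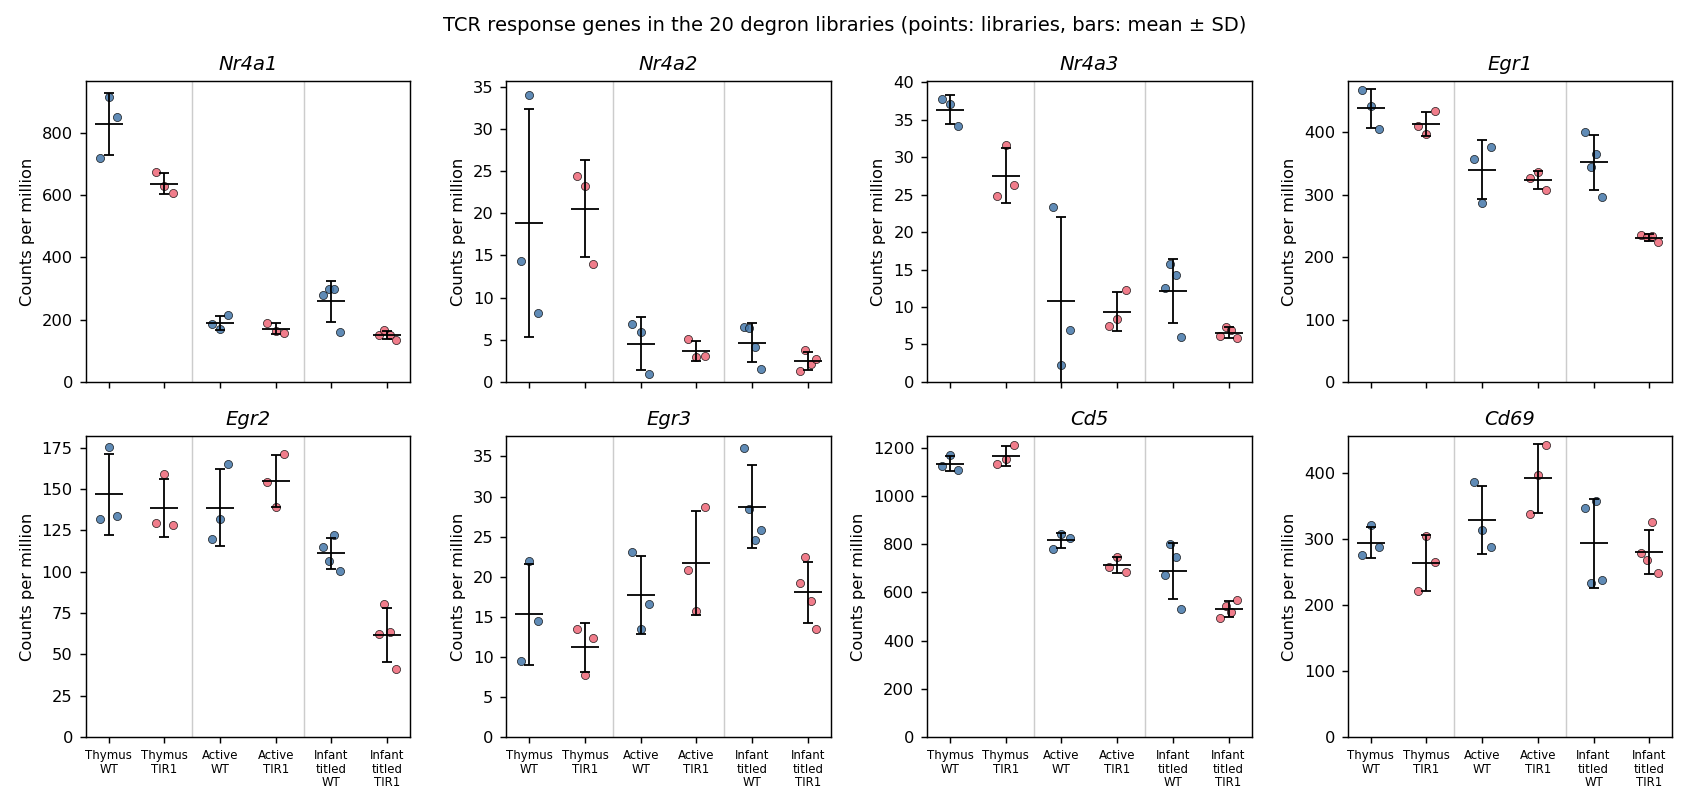
Levels of the 8 genes in the degradation experiment, in CPM of each library's assigned read pairs, with 1 panel a gene and its own axis from 0. Points are libraries (3 per adult group, 4 per infant group) and bars show the mean ± SD; Nr4a1 stands at 607 to 914 CPM in the thymic libraries and at 134 to 297 CPM in all others, while Cd69 overlaps between all neighbouring groups.

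No member passed the test between TIR1 and WT adult cells, in the thymus or in active cells, and neither was any other gene (0 of 14245 and 0 of 14554 tested, a called share of 0 percent), although 1050 and 672 genes had an unadjusted p-value under 0.05. DESeq2 called 156 genes in the thymus (1.10%), with Nr4a1 as the single member among them, and 21 in active cells, with none. The 2 members that stood apart in the thymus were both NR4A receptors. Nr4a1 had 673, 629 and 607 CPM in TIR1 against 719, 914 and 849 CPM in WT thymic libraries. All 3 TIR1 libraries lay below all 3 WT libraries, and the log2 difference was -0.38 ± 0.09 (SE, adjusted p = 0.47 by edgeR and 0.0064 by DESeq2). Nr4a3 had 24.8, 31.6 and 26.3 CPM against 37.8, 37.1 and 34.1 CPM, which is -0.40 ± 0.18 (SE, adjusted p = 0.68, edgeR). With 2 of 8 members lower and not overlapping, the share stands beside 6.23% of all genes.

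The other 6 members overlapped in thymic cells. Egr1 had 411, 397 and 435 CPM in TIR1 and 468, 442 and 405 CPM in WT libraries, and Egr2 had 129, 159 and 128 CPM against 132, 175 and 133 CPM. TIR1 and WT libraries were interleaved for both genes, with log2 differences of -0.09 ± 0.08 and -0.09 ± 0.15 (SE). Cd5 differed by 0.04 ± 0.05 and Cd69 by -0.16 ± 0.12 (SE). Over the 8, 2 differences were positive and 6 negative, with a median of -0.12 where all genes had -0.002.

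In active cells the 1 member that stood apart was Cd5. It had 707, 748 and 686 CPM in TIR1 and 782, 842 and 825 CPM in WT libraries, a log2 difference of -0.23 ± 0.11 (SE, adjusted p = 1.00, edgeR). It was the 1 member of 8 that did not overlap, all TIR1 libraries being lower, beside 4.14% of genes. Nr4a1 had 189.6, 165 and 156 CPM against 185, 170.2 and 215 CPM, and the groups overlapped. Egr2, Egr3 and Cd69 had positive differences of 0.13 ± 0.17, 0.26 ± 0.33 and 0.22 ± 0.17 on the log2 scale (SE). For Cd5 the effect in the thymus exceeded that in active cells by 0.26 ± 0.10 (SE), which did not pass over all genes (adjusted p = 0.68, edgeR), and no gene was called in that test of the difference (984 with an unadjusted p-value under 0.05, 71 called by DESeq2).

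In infant Treg cells all 8 members were lower in the libraries titled TIR1, with a median log2 difference of -0.71 where the median of all genes was -0.005, yet none passed the test over all genes. Only 3 of 16209 genes did (0.0185%), all of them higher, while 2827 had an unadjusted p-value under 0.05, among them 6 of the 8 members. Egr1 had 235, 232, 235 and 224 CPM in titled TIR1 libraries and 401, 345, 365 and 297 CPM in titled WT libraries. The groups were apart by -0.59 ± 0.09 on the log2 scale (SE, adjusted p = 0.065, edgeR). Egr2 had 62.4, 80.3, 63.3 and 41.0 CPM against 115, 107, 122 and 101 CPM, and Egr3 had 19.2, 22.5, 17.0 and 13.4 CPM against 36.1, 28.4, 24.6 and 25.8 CPM. These groups were apart as well, by -0.83 ± 0.17 (SE, adjusted p = 0.074, edgeR) and -0.65 ± 0.17 (SE, adjusted p = 0.10, edgeR). The 3 EGR factors were thus the 3 of 8 members lower with no overlap, beside 4.81% of all genes.

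In the infants 1 library bore on the calls of all members but Cd69. Nr4a1 had 152, 167, 149 and 134 CPM in titled TIR1 and 281, 297, 297 and 161 CPM in titled WT libraries. The fourth titled WT library lay within the titled TIR1 range, and it was also the lowest of its group for Nr4a2, Nr4a3, Egr1, Egr2 and Cd5. Nr4a3 had 6.08, 7.37, 6.96 and 5.89 CPM against 12.5, 15.8, 14.3 and 6.00 CPM, and Cd5 had 493, 542, 519.7 and 568 CPM against 673, 799, 748 and 533 CPM. The log2 differences over all libraries were -0.77 ± 0.18 for Nr4a1, -0.89 ± 0.44 for Nr4a2, -0.87 ± 0.26 for Nr4a3 and -0.36 ± 0.11 for Cd5 (SE). Without that library 7 of 8 members were called lower, all but Cd69. Nr4a1 was at -0.93 (adjusted p = 3.5e-05, edgeR), Egr1 at -0.66 (adjusted p = 1.4e-04, edgeR) and Cd5 at -0.46 (adjusted p = 0.0031, edgeR). In that fit 4.44% of all genes were called lower and 1774 genes in all, against 3 with all libraries. The library was the lowest of its group for most of these members. Leaving it out raises their difference and narrows the spread by construction. DESeq2 on all 8 libraries called 5 of 8, which were Nr4a1, Nr4a3, Egr1, Egr2 and Egr3, where it called 3.18% of genes lower.

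Cd69, which other stimuli than the TCR also raise, differed least. It had 279, 268, 326 and 248 CPM in titled TIR1 and 346, 233, 357 and 238 CPM in titled WT libraries, a difference of -0.05 ± 0.15 on the log2 scale (SE, adjusted p = 0.91, edgeR). No gene of the other TCR-induced list (21 tested) or of the partners and brakes (14 tested) was called, and their median log2 differences were -0.09 and -0.03. Of 17 immediate-early genes tested, 1 was called, Jun, which was higher in titled TIR1 by 1.14 ± 0.08 (SE, adjusted p = 2.3e-04, edgeR). The list's sum was 3166 to 4092 CPM in titled TIR1 and 2890 to 3389 CPM in titled WT libraries, so it overlapped and lay on the opposite side from the members.

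Across the 6 groups of the degradation experiment, the order of levels differed by gene. Infants and adults also differ in age, sex and degron zygosity, and their libraries in assigned read pairs. These cannot be told apart in the order of infants against adults, which was not tested. Nr4a1 ran from WT thymus (827 ± 99.5 CPM, SD, n = 3) over TIR1 thymus (636 ± 33.9 CPM, SD, n = 3) to titled WT infants (259 ± 65.9 CPM, SD, n = 4), and from there down the groups overlapped with their neighbours. Cd5 was highest in TIR1 thymus (1165 ± 42.0 CPM, SD, n = 3), overlapping with WT thymus, and lowest in titled TIR1 infants (531 ± 32.0 CPM, SD, n = 4). Egr1 overlapped between neighbours from the WT thymus down to TIR1 active cells, and titled TIR1 infants stood apart below them at 232 ± 4.95 CPM (SD, n = 4). For Egr2 the adult groups overlapped, then came titled WT infants and titled TIR1 infants, each apart. For Egr3 and Cd69 all 5 neighbouring pairs overlapped. The highest group mean exceeded the lowest 8.33 times for Nr4a2, 5.53 times for Nr4a3, 5.49 times for Nr4a1 and 1.49 times for Cd69.

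Between resting and active cells without Foxp3 protein, members differed in both directions. Over the 5 days, active minusFoxp3 cells had less Nr4a1, Nr4a2 and Cd5 and more Egr2 and Egr3 than resting minusFoxp3 cells. Nr4a2 was 5.10-fold lower and Egr2 1.78-fold higher. These were 5 of 8 members, 2 higher and 3 lower, where 37.9% of 20790 genes were called (19.6% higher and 18.3% lower), so calls were common among all genes too. With a replicate block Nr4a3 was called lower as well (-0.34, adjusted p = 0.038, edgeR). With the block joined across the states, chosen after the values were seen, Egr1 was also called higher (0.41, adjusted p = 2.3e-04, edgeR). That makes 6 and 7 of 8, in fits that also called more of all genes (42.4% with the joined block). The lowest, median and highest of the 10 libraries are given for each gene. Egr2 was at 70.1, 102 and 137 CPM in active and 37.8, 59.7 and 68.7 CPM in resting cells. No library overlapped, and the log2 difference was 0.83 ± 0.15 (SE, adjusted p = 6.0e-05, edgeR). Cd5 was at 334, 421 and 476 CPM in active and 553, 637 and 682 CPM in resting cells. These ranges were apart in the other direction, by -0.55 ± 0.07 (SE, adjusted p = 1.6e-07, edgeR). They were the 1 member higher and the 1 lower without overlap, beside 6.18% and 4.44% of all genes.

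The NR4A receptors overlapped between the states. Nr4a1 was at 47.1, 121 and 208 CPM in active and 103, 166 and 464 CPM in resting minusFoxp3 cells, a log2 difference of -0.97 ± 0.31 (SE, adjusted p = 0.016, edgeR). Nr4a2 was at 0.289, 2.11 and 4.05 CPM against 3.13, 8.70 and 22.8 CPM, which is -2.35 ± 0.42 (SE, adjusted p = 4.2e-05, edgeR). Both genes had wide resting ranges, and their highest values came from libraries numbered 2. Nr4a3 moved less, by -0.35 ± 0.14 (SE, adjusted p = 0.051, edgeR). Egr3 was at 11.7, 14.0 and 25.9 CPM against 9.36, 11.8 and 15.0 CPM, which is 0.41 ± 0.15 (SE, adjusted p = 0.038, edgeR), and without the 10 minusFoxp3 libraries numbered 2 it was 0.46 and did not pass (adjusted p = 0.12, edgeR). Egr1 differed by 0.35 ± 0.22 (SE, adjusted p = 0.23, edgeR) and by 0.59 without those libraries, which leaves a single library in each minusFoxp3 group. Cd69 differed by 0.15 ± 0.20 (SE).

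In GFP Treg cells Egr2 was again higher in the active state, and no member was called lower. Egr2 had 168 and 77.1 CPM in active and 58.6 and 34.5 CPM in resting GFP Treg cells. Both active libraries were above both resting ones, by 1.37 ± 0.34 on the log2 scale (SE, adjusted p = 0.022, edgeR). It was the 1 member of 8 called, where 3.12% of genes were called (1.81% higher and 1.31% lower), and it did not pass without the first active library (0.70, adjusted p = 0.63, edgeR) or the second resting one (1.03, adjusted p = 0.32, edgeR). Nr4a2 had 17.5 and 8.94 CPM in active and 5.52 and 6.94 CPM in resting cells. Nr4a1 had 240.4 and 215 CPM against 177 and 198 CPM, and Cd5 had 638 and 679.6 CPM against 656 and 603 CPM. All 8 differences were positive in GFP Treg cells, from 0.05 ± 0.15 for Cd5 to 1.37 for Egr2 (log2, SE).

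The difference between states was itself compared between GFP Treg and minusFoxp3 cells, a test added after the values were seen. It was called for Nr4a2, by 3.42 ± 1.02 (log2, SE, adjusted p = 0.048, edgeR), and for Cd5, by 0.60 ± 0.17 (log2, SE, adjusted p = 0.034, edgeR), both more positive in GFP Treg cells. These were 2 of 8 members, beside 2.23% of genes called in that direction, 2.66% in the other and 4.89% in all. Without any single one of the 4 GFP libraries neither passed, with values of 2.85 to 3.83 for Nr4a2 and 0.52 to 0.68 for Cd5. For Nr4a1 it was 1.23 ± 0.77 (SE, adjusted p = 0.47, edgeR), and for Egr2 0.55 ± 0.37 (SE, adjusted p = 0.51, edgeR).

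**Figure D2:**
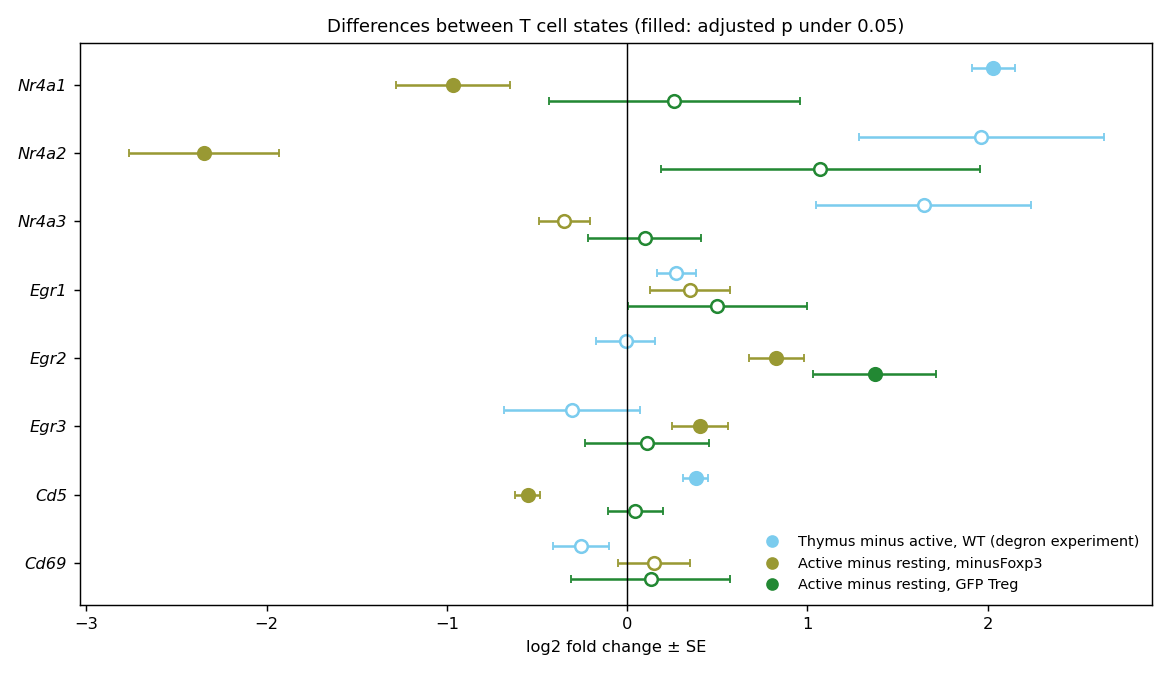
Log2 difference and its SE for each of the 8 genes between cell states: WT thymic minus WT active cells, active minus resting minusFoxp3 cells and active minus resting GFP Treg cells. Filled points passed an adjusted p of 0.05; Nr4a1 is at 2.03 in the first, -0.97 in the second and 0.26 in the third, and Egr2 is at -0.01, 0.83 and 1.37.

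The wider lists also changed with the state. In minusFoxp3 cells 9 of 22 other TCR-induced genes were higher and 7 lower in active cells. The inhibitory receptor Lag3 rose by 3.28 ± 0.21 and the factor Bhlhe40 by 2.88 ± 0.23, while Tnfrsf9 and the phosphatase Dusp2 fell, with log2 differences of -2.30 ± 0.15 and -1.49 ± 0.13 (SE). Of 14 partners and brakes, 6 were higher, among them the ubiquitin ligase Rnf128, known as an EGR target in anergic cells (2.09 ± 0.35, SE), and the NR4A partner Rxra (1.48 ± 0.14, SE), and 3 were lower, Dgka (-1.40 ± 0.12, SE) and Dgkz (-0.71 ± 0.13, SE) among them. Ccr7 was lower too (-1.85 ± 0.11, SE). Of the immediate-early list 4 genes were higher and 3 lower. Markers of myeloid cells summed to 120.3 to 338 CPM in active and 83.9 to 153 CPM in resting libraries and those of CD8 T cells to 7.93 to 32.5 and 21.9 to 34.4 CPM, and their part in these results was not tested. In GFP Treg cells 7 of 22 other TCR-induced genes were higher, with Lag3 at 2.18 ± 0.45 and Pdcd1, which encodes PD-1, at 1.95 ± 0.40, and 1 was lower, which was Myc (-0.80 ± 0.16, SE). Sla and Ptpn22 were the 2 of 14 partners and brakes that rose there.

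Over the 28 days after 4-OHT a single member passed the test between plusFoxp3 and minusFoxp3 cells. In active cells the mean difference of plusFoxp3 from minusFoxp3 over days 3, 7, 14 and 28 was called for Egr2, which was 1.47-fold lower in plusFoxp3 cells (-0.56 ± 0.16 on the log2 scale, SE, adjusted p = 0.045, edgeR). That is 1 of 8 members, beside 2.99% of 20776 genes called lower, 3.23% called higher and 6.22% in either direction. Leaving any single day out of the mean ended the call. Egr2 stood at 54.9, 65.5 and 92.7 CPM (lowest, median, highest of 8) in plusFoxp3 and at 70.1, 102 and 137 CPM in minusFoxp3 cells, and the ranges overlapped. By day, the plusFoxp3 libraries had 54.9 and 66.0 CPM at day 3 against 137 and 70.1 CPM, and 61.9 and 70.3 CPM at day 7 against 105 and 99.9 CPM. They had 92.7 and 63.1 CPM at day 14 against 129 and 104 CPM, and 67.6 and 65.0 CPM at day 28 against 83.4 and 88.1 CPM. Both plusFoxp3 libraries lay below both minusFoxp3 libraries on each of those days.

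The libraries lay the same way before treatment. At day 0 Egr2 had 79.7 and 57.8 CPM in plusFoxp3 and 95.6 and 108 CPM in minusFoxp3 libraries, when Foxp3 transcripts did not differ between them (adjusted p = 1.0, edgeR). Egr2 was thus lower without overlap on 5 of 5 days, as were 82 of 20689 genes (0.396%). The day 0 difference was -0.55 ± 0.31 (SE, adjusted p = 1.0, edgeR), and the treated days differed from it by -0.01 ± 0.35 (SE, adjusted p = 1.0, edgeR, a test added after the values were seen, with 0.472% of genes called). Neither the day 0 difference nor the change from it passed, and with an SE of 0.35 a change of moderate size could not be seen.

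Egr1 and Cd5 pointed in opposite directions in active cells without passing. Egr1 stood at 222, 314 and 371 CPM in plusFoxp3 and 273, 393 and 751 CPM in minusFoxp3 cells over days 3 to 28, a difference of -0.55 ± 0.20 (SE, adjusted p = 0.13, edgeR). Cd5 stood at 432, 462 and 614 CPM against 334, 430 and 476 CPM, a difference of 0.20 ± 0.07 (SE, adjusted p = 0.14, edgeR). All 8 members overlapped over these 16 libraries, as most genes did (0.603% were higher and 0.781% lower with no overlap). Nr4a1 differed by 0.00 ± 0.28 (SE), with 86.6 to 213 CPM in plusFoxp3 and 47.1 to 208 CPM in minusFoxp3 libraries. Its value depends on the minusFoxp3 libraries numbered 2, which held more Nr4a1 than those numbered 1 on 4 of 5 days. Without them Nr4a1 was 0.73 higher in plusFoxp3 cells and Egr2 was 0.72 lower (log2 difference -0.72). This choice was made after the values were seen and leaves a single library in each minusFoxp3 group. Only the minusFoxp3 side lost libraries, so a higher Nr4a1 in plusFoxp3 cells is built into it.

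Single days gave no call for any member in either state by edgeR or DESeq2, and at most 1 of the 8 had an unadjusted p-value under 0.05 on a day. Of all genes, the shares called at days 0, 3, 7, 14 and 28 were 0.00481%, 0.274%, 0.568%, 0.732% and 1.85% in active cells and 0.00487%, 0.0487%, 0.0585%, 0.268% and 0.945% in resting cells. In resting cells the mean over days 3 to 28 was negative for all 8 members, with a median of -0.19 where all genes had -0.02, and 0 of 8 passed (4.73% of 20520 genes did, and none of the 8 had an unadjusted p-value under 0.05; DESeq2 also called 0 of 8). The values were -0.77 ± 0.42 for Nr4a2, -0.40 ± 0.26 for Egr1, -0.27 ± 0.16 for Egr2 and -0.11 ± 0.36 for Nr4a1 (log2, SE). Without the minusFoxp3 libraries numbered 2, which held more Nr4a1 than those numbered 1 on each day, Nr4a1 was higher in plusFoxp3 cells by 0.99. That choice leaves a single library in each minusFoxp3 group and raises this difference by construction. The Foxp3 effect did not differ between active and resting cells for any member by edgeR or DESeq2, and 1 of 8, Nr4a2, had an unadjusted p-value under 0.05, with 1.82% of genes called in that test, 0.577% more positive and 1.24% more negative in active cells (0.0818% in all at day 28 alone). The values were -0.30 ± 0.24 for Egr2 and 1.44 ± 0.63 for Nr4a2 (SE, adjusted p = 0.69 and 0.32, edgeR). Within minusFoxp3 cells, no gene was called between the treated days and day 0 by edgeR in either state (0 of 20520 in resting and 0 of 20776 in active cells, with 621 and 408 at an unadjusted p-value under 0.05, and 19 and 1 called by DESeq2).

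**Figure D3:**
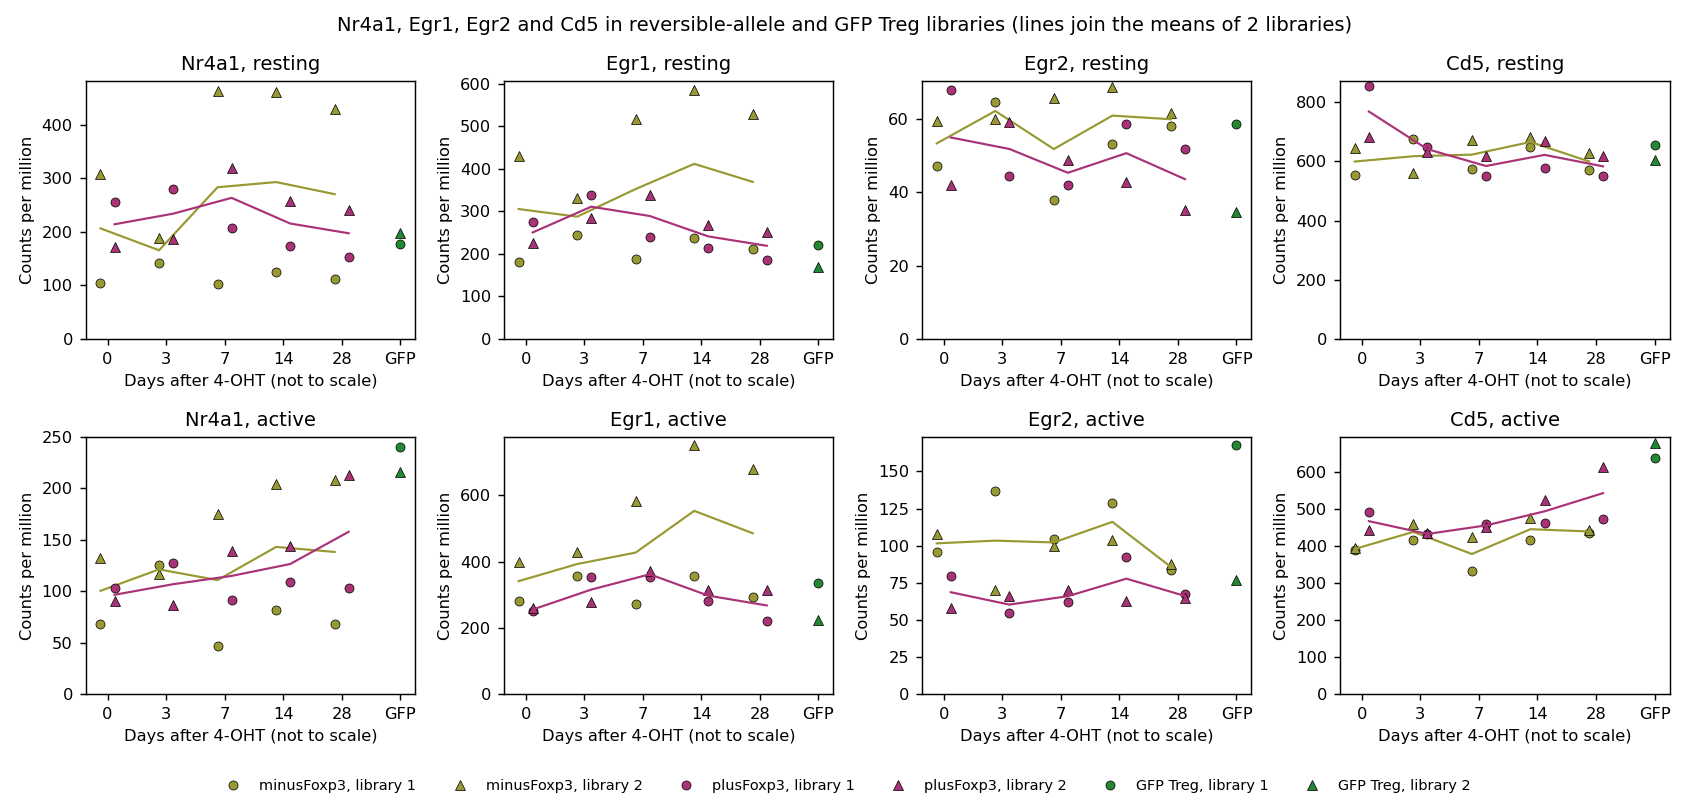
Nr4a1, Egr1, Egr2 and Cd5 in CPM by day after 4-OHT in resting (top) and active (bottom) cells, with day 0 untreated, days not to scale and GFP Treg cells at the right. Circles are libraries numbered 1 and triangles libraries numbered 2, and lines join the means of 2 libraries; minusFoxp3 triangles of Nr4a1 and Egr1 stand above the circles on most days, while active Egr2 is lower in plusFoxp3 than in minusFoxp3 cells on every day.

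Other TCR-induced genes differed by Foxp3 in both directions. In active cells 2 of 22 other TCR-induced genes were higher in plusFoxp3 cells over days 3 to 28 and 4 were lower. Tnfrsf9 rose by 2.05 ± 0.19 and Cd83 by 0.53 ± 0.11, and Bhlhe40 and the phosphatase Dusp6, which restrains ERK, fell (-0.82 ± 0.22 and -0.57 ± 0.14 on the log2 scale, SE). Ptpn22 was the 1 of 14 partners and brakes that fell (-0.55 ± 0.09, SE), and no immediate-early gene was called. In resting cells 3 of 22 were higher and 2 lower, with Tnfrsf9 at 0.92 ± 0.10 and Cd83 at 0.92 ± 0.11, and Dusp6 at -0.86 ± 0.13 and the ERK antagonist Spry1 at -0.79 ± 0.13 (SE). Ptpn22 fell there too (-0.51 ± 0.11, SE), as did Ccr7 (-0.43 ± 0.07, SE) and the egress receptor S1pr1 (-0.33 ± 0.06, SE).

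Active GFP Treg cells had more Nr4a2 and Cd5 than untreated active Treg wannabe cells. Cd5 had 638 and 679.6 CPM in GFP Treg and 391 and 396 CPM in minusFoxp3 day 0 libraries. The groups were apart, by 0.77 ± 0.15 on the log2 scale (SE, adjusted p = 0.0026, edgeR). Nr4a2 had 17.5 and 8.94 CPM against 1.17 and 1.97 CPM, which is 3.09 ± 0.90 (SE, adjusted p = 0.037, edgeR), and did not pass when any single one of these 4 libraries was left out. These 2 of 8 members were called higher, beside 5.21% of genes called higher and 4.79% called lower. Nr4a1 had 240.4 and 215 CPM against 68.4 and 133 CPM. It too was apart, by 1.21 ± 0.57 (SE, adjusted p = 0.26, edgeR). It passed with the immediate-early sum as a covariate (1.13, adjusted p = 0.022, edgeR). That fit was chosen after the values were seen, and 10.9% of all genes were called in it. Without the minusFoxp3 libraries numbered 2 the difference was 1.73, but that leaves a single day 0 library, the lower one at 68.4 CPM. The 3 EGR factors did not pass, at 0.30 ± 0.31 for Egr2, -0.27 ± 0.39 for Egr1 and -0.19 ± 0.37 for Egr3 (log2, SE).

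Among the other TCR-induced genes 7 of 22 were higher and 3 lower in active GFP Treg cells than in untreated minusFoxp3 cells, with Tnfrsf9 at 5.04 ± 0.44 and Cd83 at 2.43 ± 0.22, and Lag3 at -1.95 ± 0.27 and Bhlhe40 at -1.61 ± 0.45 (log2, SE). Of 14 partners and brakes 2 rose, Ubash3a (1.11 ± 0.19, SE) and Dgkz (0.97 ± 0.27, SE), and Ptpn22 fell (-0.60 ± 0.18, SE). In resting cells no member differed between GFP Treg and untreated minusFoxp3 cells (2.91% of genes were called, none of the 8 had an unadjusted p-value under 0.05, and DESeq2 called 0 of 8). Against plusFoxp3 cells at day 28, again no member was called by edgeR or DESeq2, beside 0.0341% of genes in resting and 2.01% in active cells. Active Egr2 was at 168 and 77.1 CPM in GFP Treg and at 67.6 and 65.0 CPM in day 28 plusFoxp3 libraries, a difference of 0.89 ± 0.32 (SE, adjusted p = 0.23, edgeR).

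The 2 libraries of a group differed in a regular way in the restoration experiment. In minusFoxp3 cells the library numbered 2 had more of the immediate-early list than the library numbered 1 on 5 of 5 days in both states, by 2.04 to 2.94 times. Nr4a1 followed on 5 of 5 days in resting cells, with a median ratio of 3.72, and on 4 of 5 days in active cells, with 2.51. At day 7 in resting cells, for instance, Nr4a1 was at 103 and 464 CPM. Egr1 followed on 5 of 5 days in both states, with medians of 2.46 and 2.11, and so did Cd69, with 1.56 and 1.70. Egr2 did not, being higher in the second library on 4 of 5 resting and 2 of 5 active days (median ratios 1.27 and 0.955), nor did Egr3, on 1 and 2 of 5 days. In plusFoxp3 cells the second library had more of the immediate-early list on 3 of 5 resting and 4 of 5 active days. What the numbers stand for is not given in the labels.

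Deviations from the group mean, on the log2 CPM scale over the 44 libraries of that experiment, separated Egr2 and Egr3 from the other members. Pearson's r with the immediate-early sum was 0.897 for Nr4a1, 0.894 for Egr1, 0.786 for Nr4a2, 0.684 for Cd69, 0.566 for Cd5 and 0.471 for Nr4a3. It was -0.132 for Egr2 and -0.519 for Egr3. Taken by genotype, Cd69 was at 0.892 in minusFoxp3 but 0.132 in plusFoxp3 libraries, and Nr4a3 at 0.61 and 0.169. Egr2 was at 0.0877 and -0.594, and Egr3 at -0.61 and -0.442, so Cd69 and Nr4a3 followed the sum mainly in minusFoxp3 libraries. Nr4a1 and Egr1 followed each other with r = 0.961, and with r = 0.988 in minusFoxp3 and 0.938 in plusFoxp3 libraries taken alone. In each of the 22 groups the 2 libraries deviate by the same amount in opposite directions, and library numbers are shared across days, so these r describe the libraries and carry no test. In the 20 degron libraries, where the immediate-early sum varied less, r was -0.08 for Nr4a1 and 0.15 for Egr1. What share of the members' spread comes from the immediate-early programme was not tested.

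**Figure D4:**
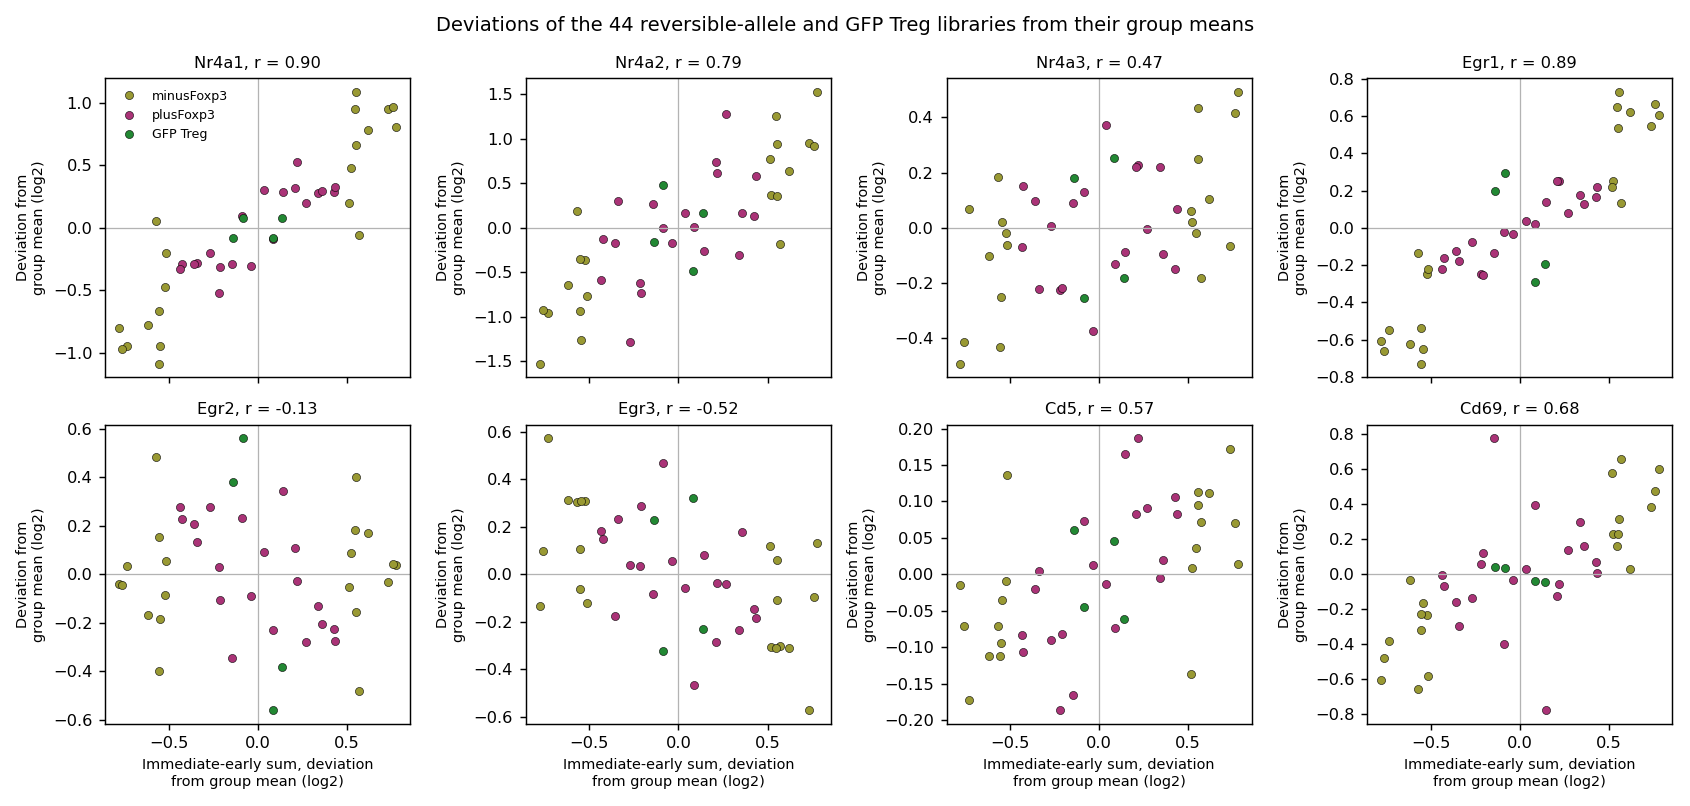
Deviation of each of the 44 restoration and GFP libraries from its group mean, in log2 CPM, for each of the 8 genes (vertical) against the deviation of the summed immediate-early list (horizontal). Nr4a1 and Egr1 rise along the immediate-early sum (r = 0.897 and 0.894), while Egr2 (r = -0.132) and Egr3 (r = -0.519) do not; each group gives a mirrored pair of points.

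Across the means of the 22 groups, Nr4a1 rose and fell with Cd5 (r = 0.913) and Nr4a2 (r = 0.871), while Egr2 went with Egr1 (r = 0.669) and Egr3 (r = 0.626) and against Cd5 (r = -0.623). Among 12399 genes, those whose group means were most like Nr4a1 were Cry2 (r = 0.966), Irs2 (0.964) and Pacsin1 (0.962). For Egr2 they were Pdcd1 (r = 0.899), Tmed1 (0.896) and Gprasp2 (0.887), for Nr4a2 Dnmt3a at 0.923, and for Cd5 Crim1 at 0.967. The best match of Egr3 reached 0.780, with Ifi27, and that of Egr1 0.850, with Ccni. The 22 points split into resting and active groups and share library series and depth, so these r are descriptions.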

How the data were processed

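Libraries were made with SMART-Seq v4 and sequenced as paired reads. The labels name Bowtie2, featureCounts, DESeq2 and the mm39 genome, while the study's methods name STAR as the aligner, and which was used is not settled here. The authors deposited 1 raw count table per library, made with featureCounts 2.0.3 (per the file headers) on GENCODE genes of GRCm39, counting read pairs without strand, so reads of a gene and of an antisense partner cannot be told apart. The 20 degron libraries were counted with primary alignments only, chimeric pairs removed and a mapping quality of at least 30, the 44 others without, so the 2 sets were compared only within themselves. The members and gene lists were chosen with earlier results of these data known.

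From the deposited counts, CPM used the total assigned read pairs of a library. Tests were edgeR 4.0.16 quasi-likelihood fits (R 4.3.3, robust, TMM scaling) on genes with a mean count of at least 10 in the fit, with Benjamini-Hochberg adjustment over all genes tested and a call at an adjusted p under 0.05. Each adult degron tissue, the infants and each state of the restoration experiment had a fit of its own, and comparisons across tissues or states had a joint fit. The thymic and active WT groups were compared in the joint fit of all 12 adult libraries. RPKM used the summed exon length in the deposited tables. Deviations from group means were taken as log2 CPM with a prior count of 2. List genes were named where their mean count was at least 50, as the largest called differences in each direction, and the genes most like a member were sought among those with a mean count of at least 100. Folds are given by the fit, and at 0 or near 0 counts none is given. Adult degron libraries were grouped by the library name in the file header, infants by title. No 2 libraries of a group agreed within sampling noise (chi-square per gene 17.3 to 190.8 over 46 pairs). Alternatives were DESeq2 1.42.0, its size factors in edgeR, no count filter, a replicate block and leaving out each library. Others were chosen after the data were seen, namely the immediate-early sum as a covariate and the block joined across the states. So was leaving out the minusFoxp3 libraries numbered 2. Library totals were 27753211 read pairs or more, and the lowest level of a member was 0.289 CPM, of Nr4a2. Results for 1 further list gene are not reported here.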

Additional observations from a re-analysis of the deposited data

Results flagged for a closer look

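In groups of 4 libraries, 1 library stood apart from the other 3 in the members or the immediate-early sum of the infants, by a gap over the group's range above Dixon's critical value for that number. For Nr4a1 it was the fourth titled WT library, at 160.7 CPM against 281 to 297 CPM in the others (gap over range 0.876). For the summed immediate-early list it was the fourth titled TIR1 library, at 4092 CPM (0.912), and the first titled WT library, at 3389 CPM (0.909). Chance gives such a gap in about 1 of 20 groups.

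In 2 members the difference of active from resting cells was not the same in GFP Treg and minusFoxp3 cells, by the test of that difference. It was 3.42 higher in GFP Treg cells for Nr4a2 and 0.60 higher for Cd5 on the log2 scale (adjusted p = 0.048 and 0.034, edgeR), with Cd5 at 0.05 in GFP Treg and -0.55 in minusFoxp3 cells. Neither passed once any 1 of the 4 GFP libraries was left out, where it ranged from 2.85 to 3.83 for Nr4a2 and from 0.52 to 0.68 for Cd5.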

How the results depend on the processing

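Of the single values recomputed under the alternatives, 398 kept their direction and side of the threshold, 41 newly passed, 26 no longer passed and 21 changed sign; of the counts of members called, 287 stayed within 1.5 times and 40 did not. The cause was not tested for any of these except where fewer genes or libraries entered by construction. With 2 libraries a group, a member that spreads as much as Nr4a1 or Nr4a2 is called only at large differences.

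Without a count filter the number of members called was 1 in infants, 1, 2 and 1 at resting days 0, 14 and 28, 2 in the resting mean, 1 and 2 at active days 14 and 28, 2 in the active mean, 1 for active GFP against plusFoxp3 day 28, and 1 for the difference of the Foxp3 effect both in its mean and at day 28. DESeq2 called 1 member in the thymus, 5 in infants and 5 between thymic and active WT cells. With the immediate-early sum as a covariate 0 were called between thymic and active WT cells and 2 in the active mean. Leaving out the minusFoxp3 libraries numbered 2 left a single library in each minusFoxp3 group, so members called in that fit are not counted here. The active mean without day 3, 7, 14 or 28 gave 0 each. Leaving out 1 library gave 0 to 7 members in infants, 2 to 4 between thymic and active WT cells, 0 to 1 at resting day 0, active day 7, active GFP against plusFoxp3 day 28 and between GFP states, 1 to 1 for active GFP against minusFoxp3 day 0, and 0 to 0 for the difference of states between GFP Treg and minusFoxp3 cells. Taken by the attached sample, the members higher in TIR1 numbered 6 in place of 2 in the thymus and 5 in place of 3 in active cells.

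Values near 0 changed sign. The active mean of Nr4a1 was 0.00239 without a filter, 0.0781 with the block, 0.0402 and 0.0571 without days 3 and 14, 0.73 without libraries numbered 2 and 0.21 with the covariate, and its resting mean was 0.0588 with the block, 0.00521 without day 28, 0.99 without libraries numbered 2 and 0.49 with the covariate. Resting Egr1 was 0.33 without libraries numbered 2. Infant Cd69 ranged from -0.141 to 0.0648 and GFP Cd5 from -0.0294 to 0.124 without 1 library. The change of the Egr2 effect from day 0 was 0.00457 with the other size factors, 0.016 without a filter, 0.00473 by DESeq2, 0.034 with the block and -0.22 to 0.25 without 1 library.

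Counts of all genes called rose without the filter and by DESeq2. From edgeR to no filter and DESeq2 they were 0, 5 and 156 in the thymus, 0, 2 and 21 in active degron cells, and 3, 149 and 1107 in infants. For the resting means they were 970, 1907 and 1572, and for the active means 1292, 2242 and 1913. For resting days 0 to 28 the counts were 1, 10, 12, 55 and 194 by edgeR, 353, 664, 493, 665 and 884 without the filter and 45, 220, 147, 294 and 463 by DESeq2. For active days 0 to 28 they were 1, 57, 118, 152 and 385, then 337, 575, 996, 847 and 1174, and 17, 264, 482, 518 and 793. They were 597, 1436 and 1036 for resting GFP against minusFoxp3, 7, 328 and 58 against plusFoxp3, 417, 1217 and 819 for active GFP against plusFoxp3, 648, 1411 and 1172 between GFP states, and 378, 1144 and 746 for the difference of the Foxp3 effect (17, 502 and 67 at day 28).

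Deviations of same-numbered libraries correlated above 0.1 in 1 of 10 pairs within degron comparisons, 5 of 10 between plusFoxp3 and minusFoxp3, 9 of 11 between resting and active, and 18 of 20 between days of minusFoxp3 cells (median r 0.206). Since not every pair did, numbers were not used as pairs, but in the restoration experiment 9 of 10, 10 of 11 and 18 of 20 pairs correlated best with their own number, a hint from the data that libraries share something by number. With the replicate block, 3 members were called between thymic and active WT cells (2952 genes), 6 between active and resting minusFoxp3 cells (8412 genes; 7 when the block also joined the states, 8809 genes), and 3 in the GFP difference of states so joined. Infants gave 7 genes and no member, and the number of members called stayed the same in the other comparisons.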
